A study of Mus musculus with 23 samples.

Results

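*Esx1*, *Hand1*, *Sohlh2*, *Nppb*, *Aqp3* and *Gm364*, 6 genes of unlike developmental roles, were followed through 15 whole tumors and 8 libraries of cancer-associated fibroblasts (CAFs). They were chosen by their readout, as leading genes of EO771 tumors or EO771 CAFs against the other models, so their EO771 values are given as a description without a test. All 6 of 6 were found among the 24940 gene symbols of both tables, with 1 row per symbol. The tumors grew from cell lines injected under the skin of C57BL/6 mice: EO771 (the line EO771.LMB, breast carcinoma), B16 (B16-F10, melanoma), LL2 (LL/2, lung carcinoma), MC38 (colon carcinoma) and Pan02 (pancreatic ductal carcinoma), with 3 tumors each. CAFs were sorted as FAP+ cells from the CD45- fraction of EO771, LL2, MC38 and Pan02 tumors, with 2 libraries each and none from B16. Every group shared the same mouse strain, received engraftment and no drug, and rested on 1 cell line, so line and cancer type cannot be told apart. Nothing in the labels says whether libraries of a group came from separate animals, and p-values measure the spread between these libraries.

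*Esx1* encodes a homeobox protein of the extraembryonic tissues of the placenta and of male germ cells. *Hand1* encodes a basic helix-loop-helix (bHLH) factor needed for trophoblast giant cells and for the heart, and *Sohlh2* a bHLH factor of spermatogonia and young oocytes. *Nppb* encodes B-type natriuretic peptide, a hormone of heart muscle that acts through a receptor that makes cyclic GMP, and *Aqp3* a channel for water and glycerol of skin and kidney epithelium. *Gm364* is a predicted gene.

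In the mm10 annotation of the files, *Esx1* lies on chromosome X at 137115397 to 137120326 on the minus strand, with up to 5 exons, and *Gm364* on the same chromosome at 57409149 to 57488771 on the plus strand, with up to 17 exons. *Hand1* lies on chromosome 11 at 57828713 to 57832147 (minus, 3 exons at most) and *Sohlh2* on chromosome 3 at 55182044 to 55209957 (plus, 11 exons at most). *Nppb* at 147985788 to 147987205 (plus, 3 exons at most) and *Aqp3* at 41092724 to 41098183 (minus, 6 exons at most) are both on chromosome 4. Reads were counted over exons on both strands together, and none of the exon bases of the 6 genes was shared with another annotated gene (0 bases each, GENCODE vM21).

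To show what the annotations hold at the starts of these genes, the RefSeq promoters (GRCm38.p6, 250 bases before to 50 after the annotated start, gene strand, 5′ to 3′) are shown for the 5 that matched by symbol. *Hand1* had no entry, and the start of the *Nppb* entry lies downstream of the one in the files. Capitals mark every CANNTG, the core E-box that bHLH proteins can bind, searched on both strands (the motif reads as itself on the other strand).
Esx1, chrX:137120277-137120576, minus strand: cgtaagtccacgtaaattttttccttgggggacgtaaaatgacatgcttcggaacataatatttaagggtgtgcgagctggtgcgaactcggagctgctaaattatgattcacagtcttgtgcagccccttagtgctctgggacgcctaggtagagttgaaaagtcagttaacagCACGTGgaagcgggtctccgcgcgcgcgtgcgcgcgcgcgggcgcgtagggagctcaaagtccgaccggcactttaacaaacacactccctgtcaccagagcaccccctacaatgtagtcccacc
Sohlh2, chr3:55181794-55182093, plus strand: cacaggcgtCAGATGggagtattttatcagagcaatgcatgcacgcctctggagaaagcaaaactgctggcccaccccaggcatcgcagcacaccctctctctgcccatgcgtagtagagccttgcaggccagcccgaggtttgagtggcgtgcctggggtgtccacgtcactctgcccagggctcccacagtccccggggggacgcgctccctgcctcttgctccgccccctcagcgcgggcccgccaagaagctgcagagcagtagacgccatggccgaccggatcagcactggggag
Nppb, chr4:147985650-147985949, plus strand: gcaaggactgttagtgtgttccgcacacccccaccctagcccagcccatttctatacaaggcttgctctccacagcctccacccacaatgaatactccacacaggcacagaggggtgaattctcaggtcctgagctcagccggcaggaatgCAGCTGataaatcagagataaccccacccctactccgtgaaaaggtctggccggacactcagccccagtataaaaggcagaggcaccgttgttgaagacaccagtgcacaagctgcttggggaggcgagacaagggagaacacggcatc
Aqp3, chr4:41098134-41098433, minus strand: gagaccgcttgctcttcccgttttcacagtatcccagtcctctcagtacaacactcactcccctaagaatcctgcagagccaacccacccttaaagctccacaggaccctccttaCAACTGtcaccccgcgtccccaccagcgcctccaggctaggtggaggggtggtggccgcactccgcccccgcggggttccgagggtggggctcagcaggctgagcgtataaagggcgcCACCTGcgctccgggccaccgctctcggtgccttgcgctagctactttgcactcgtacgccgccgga
Gm364, chrX:57408899-57409198, plus strand: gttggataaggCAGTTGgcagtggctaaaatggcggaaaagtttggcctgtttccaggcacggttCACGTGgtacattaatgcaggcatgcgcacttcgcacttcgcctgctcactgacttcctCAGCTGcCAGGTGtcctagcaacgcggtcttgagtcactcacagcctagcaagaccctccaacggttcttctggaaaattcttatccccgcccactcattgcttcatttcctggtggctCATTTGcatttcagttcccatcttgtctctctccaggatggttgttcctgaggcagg

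The promoters differed in make-up. CANNTG was found once in *Esx1*, 75 bases before the start, once each in *Sohlh2* and *Nppb*, 2 times in *Aqp3* and 5 times in *Gm364*. Of 32851 mouse promoters of this length, 72.3% held at least 1 CANNTG and 6.49% held 4 or more. TATAAA with its first base 40 to 15 bases before the start, on the gene strand, stood in *Nppb* (31 bases before) and *Aqp3* (29 bases before) and in 2.11% of all promoters. The *Esx1* promoter was rich in CpG, at 1.10 of the number expected from its C and G content, against 0.305 in *Nppb* and a median of 0.384 over all promoters. A match of letters is a description of the window and not evidence of binding.

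Total counts ran from 10035180 to 21946495 per tumor, and CAF values implied 9268020 to 22843379 reads per library. The lowest limit that 3 counts set was 0.137 CPM and the highest 0.299 CPM. MC38 tumor 1 stood apart from MC38 tumors 2 and 3 in these genes, and results that rest on it are given with and without it. Levels in tumors are counts scaled to library size after TMM (CPM), and comparisons between genes use reads scaled to library size and transcript length (RPKM).

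*Esx1*, the homeobox gene, had 1616, 1596 and 1606 CPM in EO771 tumors 1 to 3, a mean of 1606 ± 9.98 (SD, n = 3). In MC38 it had 74.6, 10.7 and 5.82 CPM, in LL2 7.20, 10.8 and 5.20, in B16 1.67, 2.36 and 2.09, and in Pan02 2.30, 1.21 and 2.46. Every EO771 tumor lay far above the other 12, MC38 and LL2 overlapped, LL2 lay above B16 and Pan02, and the latter 2 models overlapped. The EO771 mean was 52.9 times that of MC38 (194 times without MC38 tumor 1), 207 times that of LL2, 786 times that of B16 and 807 times that of Pan02. Per length, *Esx1* was the gene with rank 27 of 24931 in EO771 tumors.

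*Hand1*, the trophoblast and heart factor, had 178, 148 and 180 CPM in EO771 tumors (168 ± 17.7, SD, n = 3). In MC38 it had 8.43, 0.943 and 0.479 CPM, and in the 9 tumors of LL2, B16 and Pan02 it lay between 0.0982 and 0.313 CPM, from 1 to 5 counts. MC38 stood above these 3 models without overlap, and these 3 models overlapped with each other. The lowest MC38 tumor had only 7 counts, against 5 in Pan02 tumor 3, and could not be told apart from it.

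*Sohlh2*, the germ cell factor, had 31.7, 30.9 and 28.5 CPM in EO771 tumors (30.4 ± 1.66, SD, n = 3). In MC38 it had 1.25, 0.149 and 0.616 CPM, from 25.5, 3 and 8.5 counts. The 3 LL2 tumors had 0 counts, which makes the level in EO771 at least 510-fold higher (3 counts over the group as floor). B16 summed to 1 count and Pan02 to 2, with ratios of 1425 (95% counting interval 255 to 56347) and 844 (233 to 6978). *Sohlh2* was the lowest of the 6 genes in EO771 tumors, at 13.0 ± 0.698 RPKM (SD, n = 3) and rank 6022 per length.

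*Nppb*, the hormone gene, had 107, 101 and 98.5 CPM in EO771 tumors (102 ± 4.33, SD, n = 3). It had 31.1, 7.50 and 14.4 CPM in MC38, 6.87, 17.7 and 11.6 in B16, 2.38, 16.9 and 3.76 in LL2, and 0.244, 0.675 and 0.540 in Pan02. MC38, B16 and LL2 overlapped, and Pan02 lay below them all. With a ratio of 5.78 to MC38 (9.33 without MC38 tumor 1) and 8.46 to B16, *Nppb* was the least restricted of the 6 to EO771.

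*Aqp3*, the channel gene, had 138, 174 and 208 CPM in EO771 tumors (173 ± 35.1, SD, n = 3), the widest spread of the 6. In MC38 it had 9.24, 0.894 and 0.342 CPM, in LL2 1.49, 1.46 and 4.95, in Pan02 0.537, 1.42 and 1.62, and in B16 0, 0.187 and 0.0998. MC38, LL2 and Pan02 overlapped, and B16 lay lowest.

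*Gm364* had 106, 102 and 98.8 CPM in EO771 tumors (103 ± 3.79, SD, n = 3). In MC38 it had 3.80, 1.34 and 0.753 CPM, and the other 9 tumors lay between 0 and 0.311 CPM, with 1 count in the whole of LL2. As with *Hand1* and *Sohlh2*, MC38 stood above LL2, B16 and Pan02, which overlapped. For *Sohlh2* the lowest MC38 tumor had 3 counts, at the floor, against at most 1 in each tumor of LL2, B16 and Pan02. That tumor could not be told apart from them.

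**Figure D1:**
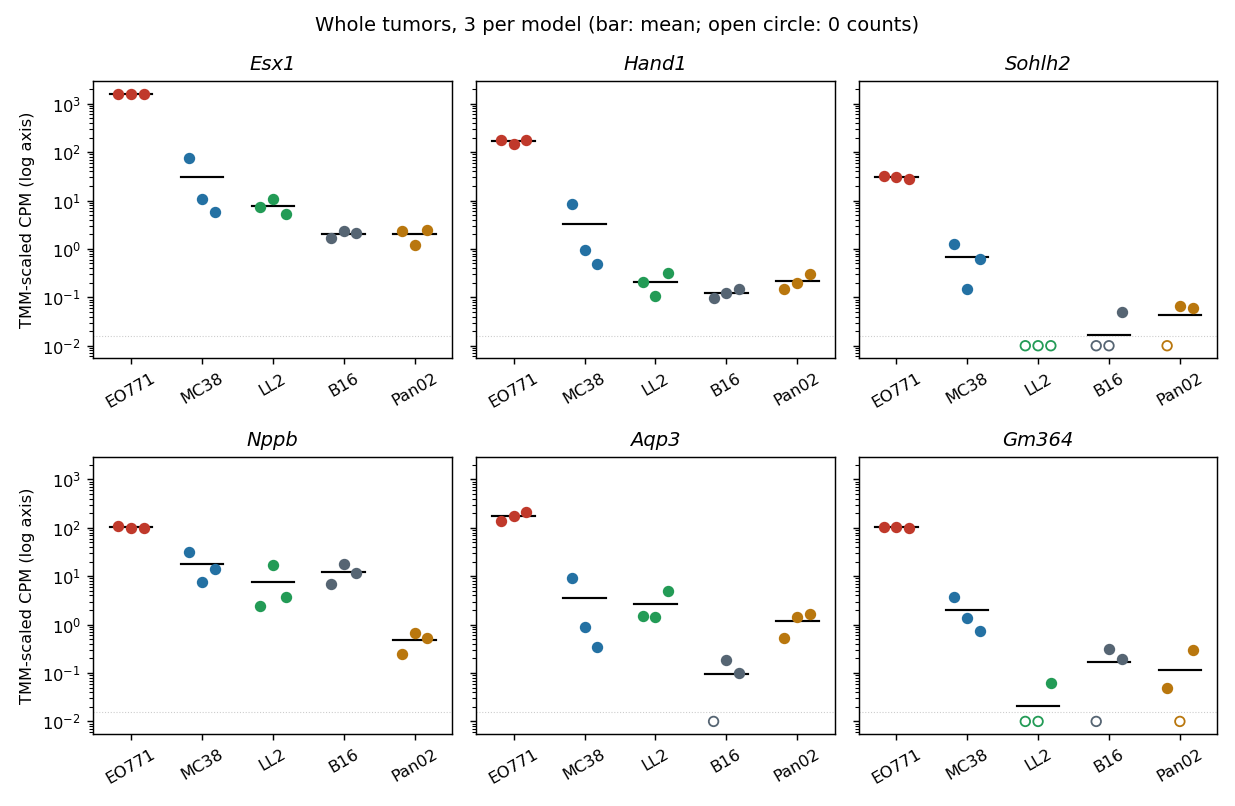
TMM-scaled CPM (log axis) of each gene in 15 whole tumors by model; points are tumors, bars are means of 3, and open circles are tumors with 0 counts. The EO771 tumors lie above all others in each panel, and MC38 tumor 1 (leftmost MC38 point) lies above MC38 tumors 2 and 3.

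The pattern in EO771 CAFs was of the same kind. *Esx1* had 734 and 743 RPKM in the 2 EO771 CAF libraries, 3.33 and 3.77 in LL2, 0.903 and 1.59 in MC38, and 0.233 and 0.123 in Pan02, with no overlap between any 2 models. *Nppb* had 88.6 and 90.4 RPKM in EO771, 0.881 and 1.26 in MC38, 0.629 and 0.227 in LL2, and 0 and 0.108 in Pan02. *Aqp3* had 65.9 and 55.3 RPKM in EO771, at most 0.365 RPKM in LL2 and MC38, which overlapped, and was listed at 0 in both Pan02 libraries.

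*Hand1* had 49.3 and 46.5 RPKM in EO771 CAFs, 0.023 and 0 in LL2, and was listed at 0 in MC38 and Pan02. From the reads implied by these values (3699.5 in EO771 against 0 in MC38 and 0 in Pan02), the level in EO771 CAFs was at least 583-fold higher than in MC38 and at least 978-fold higher than in Pan02. *Gm364* had 29.2 and 31.1 RPKM in EO771 and at most 0.201 elsewhere, and *Sohlh2* had 9.22 and 9.62 in EO771 and at most 0.092 elsewhere. For both, the other models rested on 0 to 4 implied reads per library, and their order was not detectable at this depth.

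**Figure D2:**
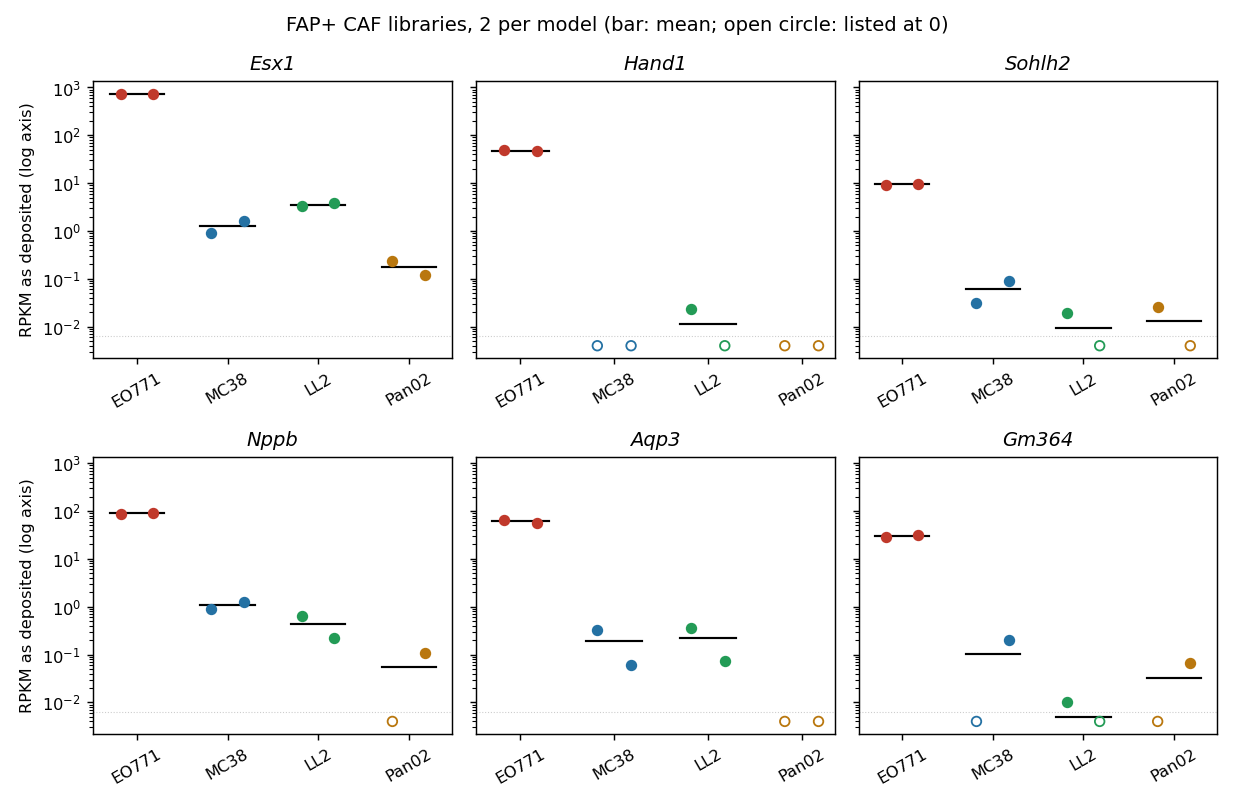
Deposited RPKM (log axis) of each gene in 8 FAP+ CAF libraries by model; points are libraries, bars are means of 2, and open circles are libraries listed at 0. Both EO771 libraries lie above the other 6 in each panel, and *Esx1* is next highest in LL2.

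In the ranking by EO771 log2 fold change, *Sohlh2*, *Gm364*, *Hand1* and *Esx1* held ranks 1 to 4 of 1272 genes in tumors, *Aqp3* rank 12 and *Nppb* rank 68. In CAFs *Esx1*, *Nppb*, *Aqp3* and *Hand1* held ranks 1 to 4 of 1519 and *Gm364* rank 7, while *Sohlh2* fell short of the mean of 10 RPKM that the ranking asked for. The log2 fold changes ran from 4.26 to 9.20 in tumors and from 3.34 to 8.34 on the log2(RPKM + 1) scale in CAFs. The values of this contrast chose the genes, and 9.71% of all genes in tumors and 8.05% in CAFs were called higher in it (adjusted p below 0.05 with a log2 difference of 1 or more). The first other genes were *Chit1* (55.8 ± 19.3 CPM, SD, n = 3), *4930550L24Rik* (161 ± 4.53) and *Tex19.1* (90.1 ± 8.26) in tumors. In CAFs they were the keratin gene *Krt17* (46.3 ± 2.65 RPKM, SD, n = 2), *4930550L24Rik* (59.2 ± 3.94) and the neuropeptide precursor gene *Vgf* (59.7 ± 0.0898).

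Whether the genes also differed among the models other than EO771 was tested without EO771 tumors in the contrast. The values of these models had entered the choice of genes as the side that EO771 was set against. MC38 was set apart because some of the genes were already known to lie above the floor there. The p-values below are therefore not free of these choices. Between MC38 and the mean of B16, LL2 and Pan02, edgeR's quasi-likelihood test gave a log2 fold change of 3.25 (SE 0.512, adjusted p = 0.000137) for *Esx1*, 2.35 (SE 0.769, adjusted p = 0.0196) for *Aqp3* and 2.31 (SE 0.502, adjusted p = 0.00163) for *Nppb*. In this contrast 11.6% of all genes tested were called higher. *Hand1* and *Sohlh2* passed the filter on low values only through their EO771 counts, and *Gm364* only through EO771 and MC38, the models in which it was highest. Their log2 differences of 4.20, 4.98 and 4.52 are therefore given as a description, with no p. In the test over the 4 models other than EO771, adjusted p was 0.000340 for *Esx1*, 0.000511 for *Nppb* and 0.0192 for *Aqp3*, where 86.6% of all genes passed. Without B16 tumor 1 or B16 tumor 3 that of *Aqp3* was 0.0511 or 0.0675.

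These differences rested in part on MC38 tumor 1. As a share of the EO771 mean, MC38 tumor 1 held 4.64% for *Esx1*, 5.01% for *Hand1*, 4.12% for *Sohlh2*, 5.34% for *Aqp3* and 3.71% for *Gm364*, so these 5 genes lay within 3.71% to 5.34%. In MC38 tumors 2 and 3 the same genes lay within 0.491% to 1.31% and 0.198% to 2.03%. *Nppb* stood outside this range, at 30.5%, 7.35% and 14.1% of the EO771 mean in MC38 tumors 1 to 3. In the 9 tumors of LL2, B16 and Pan02 the 5 genes other than *Nppb* lay between 0% and 2.85%.

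Without MC38 tumor 1 the log2 difference of *Aqp3* was -0.11 (SE 0.891, adjusted p = 0.938), so its call was lost. *Esx1* then had 1.38 (SE 0.263, adjusted p = 0.00105) and *Nppb* 1.61 (SE 0.540, adjusted p = 0.0282). The contrast is with an average of B16, LL2 and Pan02, and does not place MC38 above each of them. Without tumor 1 the MC38 mean of *Esx1* was 8.27 CPM, against 7.75 in LL2, 2.04 in B16 and 1.99 in Pan02. That of *Nppb* was 10.9 CPM, against 12.1 in B16, 7.69 in LL2 and 0.486 in Pan02. The log2 difference was 2.01 for *Hand1*, 4.07 for *Sohlh2* and 3.61 for *Gm364*, again as a description.

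Of 19 other genes with at least 10 CPM in EO771 and at most 5% of that level in every B16, LL2 and Pan02 tumor, 6 were more than 2-fold higher in MC38 tumor 1 than in both other MC38 tumors. These 6, picked for that difference, held 4.39% to 7.21% of the EO771 mean there, and with a limit of 1% in place of 5%, 2 of 6 genes met it. *Chit1*, a chitinase gene, held 5.87%, 0.534% and 0.368% in MC38 tumors 1 to 3, and *Sbk3* held 7.21%, 0.676% and 2.33%. The keratin gene *Krt8*, which was not restricted to EO771 (up to 1308 CPM in the other models against an EO771 mean of 1228), held 4.46%, 0.340% and 0.234%. Of the 6 genes under the 1% limit, 4 lay above 3% of the EO771 mean in all 3 MC38 tumors. They were *Morc1* (70.2%, 60.7% and 49.2%), *Nr5a1* (31.1%, 36.4% and 25.2%), *4930550L24Rik* (14.01%, 20.4% and 14.6%) and *Tex19.1* (11.5%, 10.2% and 8.66%). What set MC38 tumor 1 apart was not tested.

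**Figure D3:**
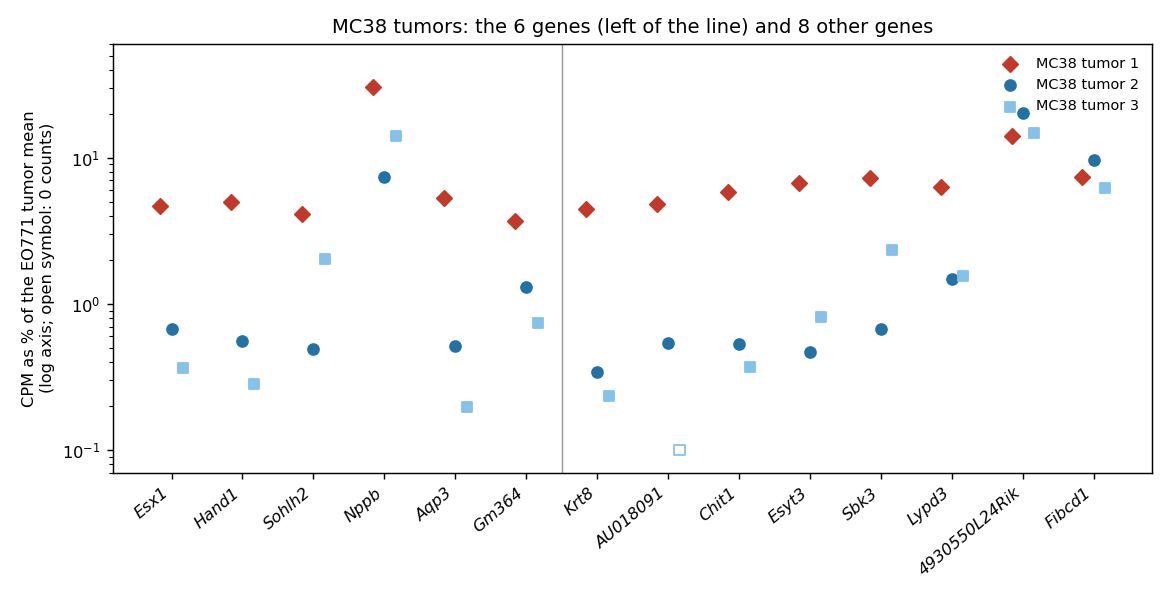
CPM in each MC38 tumor as a percentage of the EO771 tumor mean (log axis) for the 6 genes, left of the line, and 8 other genes; symbols are tumors and the open symbol is 0 counts. In MC38 tumor 1, 5 of the 6 genes lie within 3.71% to 5.34%. The 8 other genes are a picked part, and *Morc1*, *Nr5a1* and *Tex19.1*, above 3% in all 3 MC38 tumors, are not drawn.

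Among LL2, MC38 and Pan02 CAFs, 67.8% of all genes passed limma's test on log2(RPKM + 1). *Esx1* was highest in LL2, the only one of these models with at least 1 RPKM in both libraries. Its filter on low values was therefore passed only through EO771 and LL2, where it was highest, and its order is a description, with no p. The other 5 entered this fit only through the EO771 libraries, and their p-values are not given. *Nppb* had its highest values of these models in MC38, where *Hand1* was listed at 0 and *Aqp3* had 8.5 implied reads in both libraries together.

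Levels in whole tumors and CAFs were set side by side by dividing both by the reads on the chosen transcripts, and were not tested, since the 2 tables were normalized separately. In EO771, *Esx1* had 1005 ± 2.98 RPKM in tumors (SD, n = 3) and 841 in CAFs, or 83.6% of the tumor level. The CAF level was 82.8% of the tumor level for *Sohlh2*, 77.4% for *Nppb*, 72.1% for *Gm364*, 70.1% for *Aqp3* and 61.5% for *Hand1*. In MC38 the share was 8.43% for *Esx1* and 5.97% for *Nppb*, or 31.2% and 9.67% without MC38 tumor 1. In LL2 it was 87.5% for *Esx1* and 5.19% for *Nppb*, or 110% and 13.3% without LL2 tumor 2, where *Nppb* was highest. In bulk RNA, fewer cells of a type and less RNA per cell cannot be told apart.

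**Figure D4:**
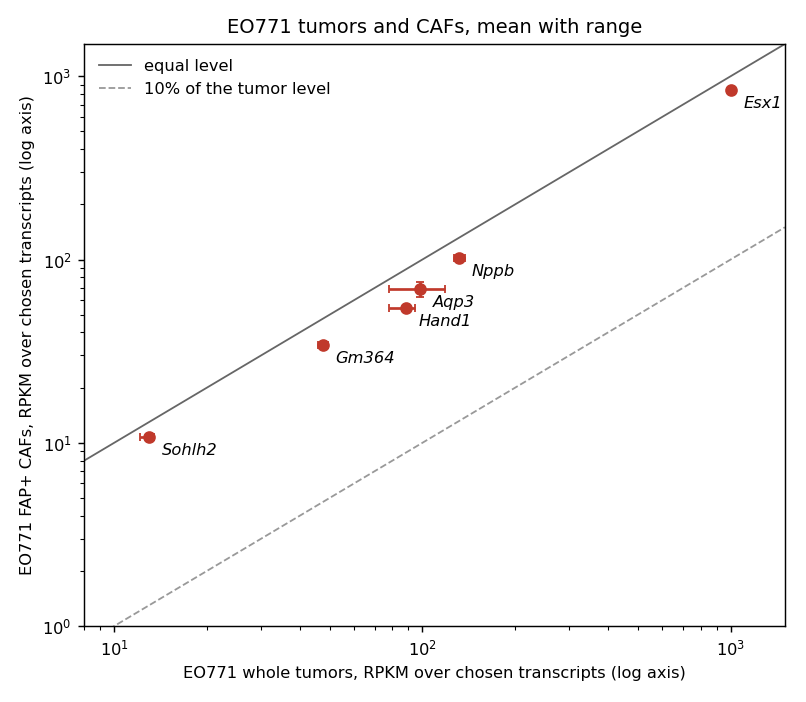
Mean level of the 6 genes in EO771 whole tumors (3) and EO771 CAFs (2), both as RPKM over the chosen transcripts on log axes, with bars for the range; lines mark equal levels and 10% of the tumor level. All 6 points lie below the line of equality and well above 10%, at 61.5% to 83.6% of the tumor level.

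Marker lists place these shares. Medians of the lists cover only genes with at least 1 RPKM in the tumors of the model. In EO771 CAFs, 8 of 9 fibroblast genes had a median of 899% of their tumor level, and 7 of 8 leukocyte genes 12.8%. The median was 55.2% for 5 of 5 endothelial genes and 57.9% for 3 of 10 epithelial genes. In Pan02 CAFs the median of 9 fibroblast genes was 80.6%. The 14 other genes restricted to EO771 tumors (at least 10 CPM there and at most 10% of that in every other tumor) had a median of 64.7%, with quartiles at 55.5% and 81.1%, beside 61.5% to 83.6% for the 6 genes. Genes restricted to MC38 (20), LL2 (7) and Pan02 tumors (97) by the same rule had medians of 82.5%, 37.3% and 108% in the CAFs of their model. All 9 of 9 fibroblast markers were above 0 in every CAF group, with summed levels of 8980 to 9733 RPKM in EO771 against 1530 to 8254 in the other models. Most of the EO771 sum came from *Col1a1* (mean 3567 RPKM), *Col1a2* (2352) and *Col3a1* (2759). By limma, 2 of the 9 were called higher in EO771 CAFs and 0 lower, where 8.05% of all genes were called higher and 7.06% lower.

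Markers of other cell types were measured beside the 6 genes. The 10 epithelial markers summed to 494 to 502 RPKM in EO771 CAFs, nearly all from *Krt8* (493 ± 2.27, SD, n = 2), against 2.55 to 5.06 in MC38, 209 to 214 in LL2 and 847 to 1127 in Pan02, and none was at 0 in any CAF group. *Krt18*, the usual partner of *Krt8*, had 1.06 RPKM in EO771 CAFs. The 8 leukocyte markers summed to 25.04 to 29.997 RPKM in EO771 CAFs and 5.17 to 10.1 in the others, with none at 0, and the 5 endothelial markers to 31.8 to 32.2 against 4.05 to 30.9. Of those tested, 4 of 5 leukocyte and 2 of 5 endothelial markers were called higher in EO771 CAFs by limma, where 8.05% of all genes were, and 6 of 6 and 5 of 5 by edgeR on reads recovered from the RPKM values, where 12.2% of all genes were. Of the leukocyte markers, *Adgre1* and *Itgam* had at most 0.555 and 0.409 RPKM outside EO771. They passed the limma filter only through EO771, so their limma calls are a description. The part of leukocytes and endothelial cells in the levels of the 6 genes was not tested. Of the 9 mammary markers, *Csn2*, *Csn1s1* and *Elf5* had 0 counts in EO771 tumors. *Csn2* was also at 0 in the tumors of every other model and *Csn1s1* in those of MC38, B16 and Pan02, while *Elf5* was at 0 in EO771 alone. The sum of the mammary markers lay at 1.87 to 2.40 RPKM in EO771 tumors and between 1.62 and 10.0 in the other models.

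Genes that share a role with the 6 were then counted in the contrast of EO771 with the other models. They are given by their counts, beside backgrounds of 9.71% of genes higher and 13.7% lower in tumors, and 8.05% and 7.06% in CAFs, and a median log2 difference over all genes of -0.045 in tumors and -0.024 in CAFs. Of 13 trophoblast genes tested in tumors, 2 rose and 4 fell (median -0.26), and of 9 in CAFs, 1 rose and 3 fell (median -0.37). *Tead4*, a factor that sets the trophoblast lineage apart, rose in both, at 158 ± 0.628 CPM (SD, n = 3) in EO771 tumors against at most 44.1 elsewhere, and at 27.5 ± 3.18 RPKM (SD, n = 2) in CAFs against at most 4.38. The imprinted placental gene *Peg10* fell, at 0.818 ± 0.297 CPM against a median of 32.8 in the other tumors, and so did *Prl2c2*, a prolactin-family hormone of giant cells. With edgeR on recovered CAF reads, 1 of 16 rose and 6 fell, beside 12.2% of all genes higher and 11.6% lower. The listed placental genes moved in both directions.

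Of 9 germ cell genes tested in tumors, 2 rose and 3 fell (median -0.99), and of 6 in CAFs, 2 rose and none fell (median 0.40). *Taf4b*, a transcription cofactor of gonads, rose in both (34.0 ± 3.06 CPM, SD, n = 3, in EO771 tumors against at most 26.8 elsewhere). *Zp3* rose in tumors from low values (0.320 ± 0.187 CPM in EO771 against at most 1.44 elsewhere). Those that fell in tumors were *Zbtb16* (log2 difference -2.06), *Gfra1* (-1.40) and *Kit* (-1.18), while *Zbtb16* rose in CAFs (1.26). In CAFs *Zbtb16* had at most 0.359 RPKM outside EO771 and passed the filter on low values only through EO771. Its rise, counted above, is therefore a description. *Sohlh1*, the partner of *Sohlh2*, did not pass the filter on low values in either table.

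Of 14 heart muscle genes tested in tumors, 4 rose and 4 fell (median -1.24), and of 8 in CAFs, 1 rose and 2 fell. *Tnnt2*, cardiac troponin T, rose most, at 40.4 ± 4.47 CPM (SD, n = 3) in EO771 tumors against a median of 1.07 and a highest value of 21.9 in the others, and at 29.7 ± 0.0375 RPKM in CAFs against at most 9.27. *Isl1* had 0 counts in the EO771 tumors and *Gata6* fell (0.310 ± 0.180 CPM against a median of 9.61), both being factors active in heart progenitors. *Gata4*, of the same list, rose in tumors (4.47 ± 0.482 CPM against a median of 1.00 and a highest value of 19.8 in the others) and did not pass the test in CAFs.

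In the pathway of *Nppb*, 4 of 12 genes rose and 6 fell in tumors, and 4 of 11 rose and 1 fell in CAFs. *Pde2a*, which breaks down cyclic nucleotides, rose most in both, at 176 ± 6.89 CPM (SD, n = 3) in EO771 tumors against at most 35.4 elsewhere and 28.4 ± 0.329 RPKM in CAFs against at most 10.1. *Prkg2*, a cyclic GMP-dependent kinase, fell in both (1.13 ± 0.372 CPM against a median of 41.6 in tumors). *Npr1*, the receptor for the peptide, fell in tumors, at 6.30 ± 1.35 CPM in EO771 against a median of 13.96, and had 5.28 RPKM in EO771 CAFs against a median of 6.21.

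Of 7 other aquaporin genes tested in tumors, 3 fell and *Aqp7* rose from low values. It had 1.34 ± 0.421 CPM (SD, n = 3) in EO771, against a median of 0.195 and at most 0.648 elsewhere. Of 5 in CAFs, *Aqp2* rose and *Aqp1* fell. Among bHLH partners and inhibitors, 3 of 9 rose and 1 fell in tumors, and 2 of 9 rose and none fell in CAFs. *Id1*, an inhibitor of bHLH dimers, rose in tumors (43.5 ± 4.68 CPM) while *Id3*, another, fell (8.78 ± 1.18 CPM against a median of 32.7). *Twist2* rose in both, at 86.7 ± 4.27 CPM in EO771 tumors and 69.8 ± 0.227 RPKM in CAFs, although single tumors of other models reached 151 CPM.

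**Figure D5:**
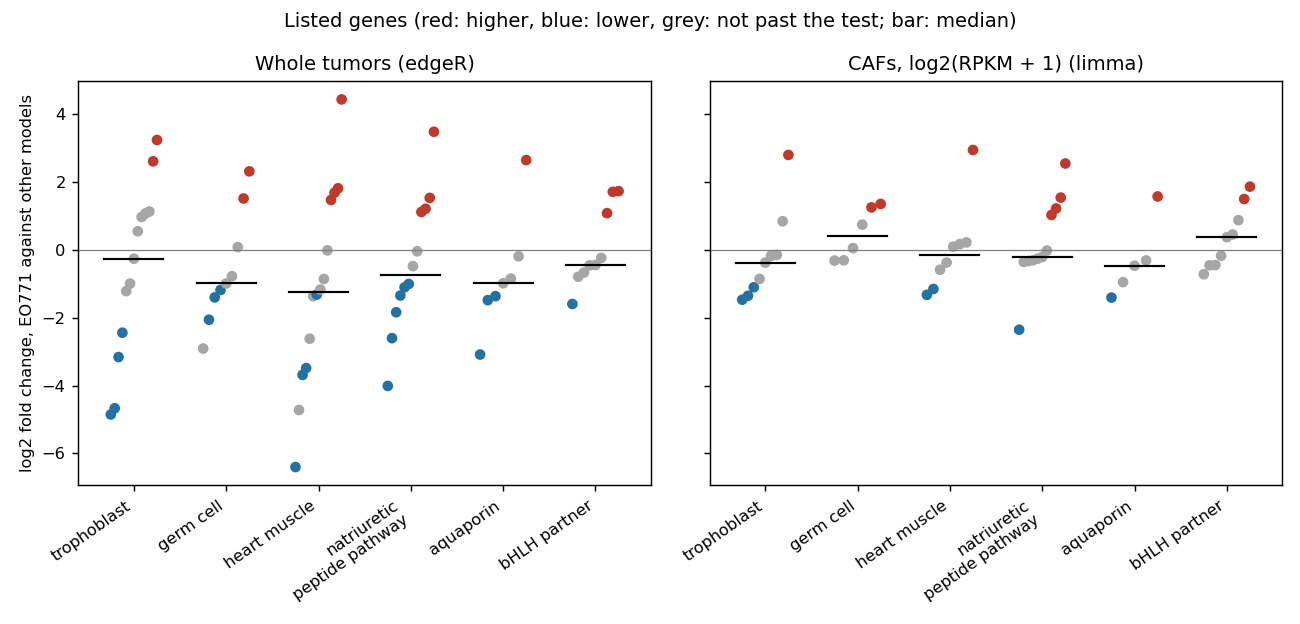
Log2 fold change of EO771 against the other models for listed genes in tumors (edgeR) and CAFs (limma on log2(RPKM + 1)); points are genes, red higher, blue lower, grey not past the test, and bars are medians. Each list in tumors holds genes on both sides of 0, and its median lies below 0.

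Of 53 genes whose start lay within 250000 bases of one of the 6, 37 were tested in tumors, where 2 rose and 5 fell, and 36 in CAFs, where none rose and 2 fell. Set against the backgrounds of 9.71% and 13.7% in tumors and 8.05% and 7.06% in CAFs, these counts are no result about the neighbours. *Fam199x* near *Esx1* rose in tumors (53.6 ± 4.68 CPM, SD, n = 3, against at most 30.5), as did *Aqp7* near *Aqp3*. Those that fell were *Galnt10* near *Hand1*, *Dclk1* near *Sohlh2*, *Rbmx* near *Gm364*, and *Fbxo2* and *Fbxo44* near *Nppb*, of which the last 2 also fell in CAFs. The largest rise among the 37 was 2.65 on the log2 scale, at *Aqp7*, from low values.

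By likeness over the 15 tumors (Pearson's r of log2(CPM + 1) among 9759 genes with at least 10 CPM in EO771), which here mostly sets EO771 against the rest, *Sohlh2* was closest to *Sbk3* (r = 0.997), *Hand1* to *Chit1* (r = 0.994), *Gm364* to the interleukin gene *Il23a* (r = 0.991), *Esx1* to *Dlx4os* (r = 0.981) and *Aqp3* to *Lypd3* (r = 0.977). *Nppb* differed: its closest gene was *Mapre1* (r = 0.959), which had 263 ± 2.97 CPM in EO771 and up to 222 elsewhere. Over the 8 CAF libraries, *Chit1* was closest to *Hand1* (r = 0.999) and *Aqp3* (r = 0.998), *Krt17* to *Gm364* (r = 0.999), *Lypd3* to *Nppb* (r = 0.997) and *Irf8* to *Esx1* (r = 0.993). Points share depth and library, and no p is given.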

How the data were processed

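RNA of 15 whole tumors and 8 FAP+ CAF samples was sequenced after poly(A) selection, without strand. Per the labels and the study's methods, reads were aligned to mm10 with STAR 2.5.0c and counted over RefSeq exons with HOMER. For tumors the authors deposited expected counts, in steps of 0.5 and not normalized, and for CAFs they deposited RPKM. Each table has 40458 transcript rows. The 2 rows without a gene name and 5 columns of other samples were not used. For each of 24940 symbols the row with the highest mean was kept.

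Rounded tumor counts of the 15732 genes that passed filterByExpr entered edgeR 4.0.16 (TMM factors, quasi-likelihood test, 1 term per model). For the 13598 genes reaching 1 RPKM in 2 or more CAF libraries, limma 3.58.1 with a variance trend was run on log2(RPKM + 1), a scale that understates changes of low genes. Adjustment was by Benjamini-Hochberg over all genes. CAF columns name a model but no replicate. Whole reads recovered from RPKM (100% of low values within 0.1 of a step of 0.5 reads) served an edgeR fit chosen after seeing the data. The 6 genes, the contrasts and the lists were chosen with earlier results of these data known. Named were the 6 genes, the listed genes past the test with the largest changes, neighbours past the test, the first 3 other genes of each ranking and the closest genes by correlation. *Npr1*, *Gata4*, *Gfra1*, *Kit*, *Adgre1*, *Itgam*, *Col1a1*, *Col1a2* and *Col3a1* were singled out after their values were seen. So were *Krt8*, *Sbk3*, *4930550L24Rik*, *Chit1*, *Morc1*, *Nr5a1* and *Tex19.1* in MC38 tumors. On simulated data for the MC38 contrast (15418 genes), edgeR recovered 23 of 50 genes changed 2-fold and 50 of 50 changed 4-fold, with 3 false calls, and limma recovered 26 of 50 and 50 of 50 for the EO771 CAF contrast. Libraries of a group differed beyond sampling noise. R 4.3.3, DESeq2 1.42.0, Python 3.11.15, pandas 2.3.3 and scipy 1.17.1 were used. Alternatives were other scalings, filters, pseudocounts and transcripts, DESeq2, the replicate number as a block, and leaving out each library. Counting intervals (95%) and floors of 3 counts cover counting error only.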

Additional observations from a re-analysis of the deposited data

How the results depend on the processing

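Counts of genes called kept within 1.5 times under all alternatives run, except for EO771 against the other CAFs, where 2054 genes became 3157 with a pseudocount of 0.1 and 3692 with edgeR on recovered reads (an alternative added after seeing the data). That edgeR fit tested 15519 genes in place of 13598. With total-count scaling the MC38 contrast called 2256 genes higher and 1258 lower, in place of 1826 and 1597, with a median shift of 0.153 (log2), and *Esx1*, *Aqp3* and *Nppb* kept their direction and call. The difference of *Aqp3* between MC38 and B16, LL2 and Pan02 reversed to -0.11 without MC38 tumor 1, and with the replicate block it was 2.23 (adjusted p = 0.0502), past the threshold no longer. Over the models other than EO771, adjusted p of *Aqp3* was 0.0511 and 0.0675 without B16 tumor 1 or 3. DESeq2 gave no adjusted p for *Esx1* and *Hand1* in that contrast. The replicate number did not pair the tumors (5 of 30 same-numbered pairs correlated above 0.1, and 4 of 15 tumors correlated best with their own number), and the block moved the MC38 contrast from 3423 to 3389 calls. No replicate block was run for CAFs, since their columns carry no replicate number. Leaving out 1 library moved the log2 difference within 1.38 to 3.70 for *Esx1*, 2.01 to 4.65 for *Hand1*, 4.07 to 5.60 for *Sohlh2*, 1.61 to 2.76 for *Nppb*, -0.11 to 2.82 for *Aqp3* and 3.61 to 5.15 for *Gm364*. The ratios and CAF shares without MC38 tumor 1 or LL2 tumor 2 were also added after seeing the data. Mean levels in EO771 and MC38 tumors moved by less than 1 SD with the longest transcript or total-count scaling. With 3 tumors or 2 CAF libraries per group, and at most 5 counts of *Hand1*, *Sohlh2* and *Gm364* in each tumor outside EO771 and MC38, orders among the low groups were not detectable.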
